A study of Mus musculus with 9 samples.

Results

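Genes that drive the cell cycle and copy DNA were read in BV2 cells, a mouse microglial line, after treatment with silica-coated magnetic nanoparticles. The set held 46 genes chosen by name for their role, with no measured value in the rule, and 45 of them matched 1 row each in a table of 40993 genes. Cdt1, a licensing factor, had no matching row, so its expression was not analysed here and only its promoter was searched. All 45 matched genes had a mean of at least 1 FPKM (fragments per kilobase of transcript, scaled to the size of the library, so a level per transcript length), the minimum for testing, as did 11161 genes of the whole table. They were divided into 9 regulators of G1, 6 genes of the G1/S transition, 13 genes of DNA replication (12 matched) and 18 genes of G2 and mitosis (G2/M).

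The 9 RNA libraries comprised 3 of non-treated control cells, 3 of cells given 0.01 µg/µl MNPs@SiO2(RITC) for 12 h and 3 of cells given 0.1 µg/µl for 12 h. These doses equal 10 and 100 µg/ml and are named so from here on. MNPs@SiO2(RITC) are nanoparticles with a cobalt ferrite core and a silica shell that holds the dye rhodamine B isothiocyanate. BV2 cells are a single line immortalized with a retrovirus that carries v-raf and v-myc, so that controls and treated cells all come from cells that divide in culture, and the labels do not say whether the libraries of a group come from separate cultures, so p-values measure only the spread between these libraries.

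A cell that leaves G1 is driven by cyclin D with Cdk4 or Cdk6, which phosphorylate the retinoblastoma protein and free E2F factors, and then by cyclin E with Cdk2. E2F factors switch on genes for the MCM helicase, nucleotide synthesis and DNA polymerases, and repressor complexes of the DREAM and Rb families hold the same genes down in resting cells. Genes of G2 and mitosis are switched on later, mostly through CHR elements and CCAAT boxes near their start sites, and serve cyclin B with Cdk1, spindle assembly and the checkpoint that guards chromosome separation.

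FPKM carries no depth. The spacing of low values gave an approximate depth of 12.35 to 15.25 M fragments per library. The labelled cell type was checked with marker genes. Of 12 matched markers of microglia and macrophages, 10 reached a mean of 1 FPKM, and the homeostatic markers Cx3cr1 and P2ry12 did not. At 100 µg/ml 1 of the 10 was called, where 2.11% of all genes were. It was the macrophage marker Emr1 (199, 208 and 200 FPKM in controls, 117, 133 and 132 FPKM at 100 µg/ml). All 10 had a log2 fold change below 0 at that dose (median -0.20). Libraries did not overlap between 100 µg/ml and control for 4 of them (40%, all genes 23.8%). The summed level of the 12 markers was 1455 to 1655 FPKM in controls and 1305 to 1499 FPKM at 100 µg/ml. Their part in the results below was not tested. None of 14 markers of other brain or culture cells reached 1 FPKM on average, 6 of them were listed at 0 in every library, and their summed level was 1.72 to 1.85 FPKM in controls and 1.04 to 1.95 FPKM at 100 µg/ml. The proliferation markers Mki67 and Mcm2 were read at 45.7 to 73.7 and at 80.5 to 85.7 FPKM in the 9 libraries. In bulk RNA, fewer cycling cells and less RNA of these genes per cell cannot be told apart. Replicate 1 at 100 µg/ml stood apart from replicates 2 and 3 by transcript length. Its deviation from the other 2 fell with the length of the longest transcript, with Spearman's rho of -0.60 over 11076 genes and -0.62 over the 45 genes described here, so results are also given without it where it decides them.

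Promoter sequences are shown first, since the 2 phases compared here are known for different promoter elements. RefSeq promoters of 300 bases, from 250 bases before to 50 after the start site on GRCm38.p6, were found for 36 of the 46 genes, and none were found for Tpx2, Ccne2, Ccnd2, Ccna2, Ccnd1, Myc, Mcm4, Cdc25c, Rb1 and Aurkb. They were searched on both strands for the E2F letters TTTCCCGC, TTTGGCGC and TTTCGCGC, for the CHR letters TTTGAA and for the CCAAT letters of the CCAAT box. The 5 stretches below were chosen to show the E2F letters, in capitals on either strand, in genes of the G1/S transition and of replication. They read 5′ to 3′ on the strand of the gene and hold only bases upstream of the start.
Cdc25a, chr9:109875487-109875544, plus strand: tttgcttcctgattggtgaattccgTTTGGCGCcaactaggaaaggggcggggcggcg
Cdk2, chr10:128705159-128705216, minus strand: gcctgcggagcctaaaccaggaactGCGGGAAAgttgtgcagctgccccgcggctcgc
Mcm5, chr8:75109335-75109392, plus strand: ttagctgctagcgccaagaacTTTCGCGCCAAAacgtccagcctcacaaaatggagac
Mcm6, chr1:128359720-128359777, minus strand: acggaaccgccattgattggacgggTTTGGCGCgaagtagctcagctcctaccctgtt
Pola1, chrX:93632261-93632318, minus strand: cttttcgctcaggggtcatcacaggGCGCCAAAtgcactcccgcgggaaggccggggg

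In Mcm5 the capitals cover 2 overlapping matches, 1 on each strand. The E2F letters were in the promoters of 10 of 17 genes of the G1/S transition and replication (58.8%), against 1 of 14 G2/M genes (7.14%), 0 of 5 G1 regulators and 2.12% of 27025 genes in all. The next 5 stretches, from G2/M genes, show the CHR letters in capitals in the same way.
Ccnb2, chr9:70421691-70421746, minus strand: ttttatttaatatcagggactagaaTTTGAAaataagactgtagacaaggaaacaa
Cdk1, chr10:69352953-69353008, minus strand: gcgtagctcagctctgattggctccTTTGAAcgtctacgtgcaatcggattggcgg
Mki67, chr7:135716447-135716502, minus strand: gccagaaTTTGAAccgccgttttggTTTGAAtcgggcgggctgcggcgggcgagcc
Kif11, chr19:37376338-37376381, plus strand: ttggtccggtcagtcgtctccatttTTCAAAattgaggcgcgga
Top2a, chr11:99024190-99024237, minus strand: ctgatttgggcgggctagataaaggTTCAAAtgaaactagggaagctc

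In Ccnb2 and Cdk1 the capitals begin 167 and 71 bases before the start site. Matches nearer to it, at base 5 after it in Ccnb2 and 15 bases before it in Cdk1, are not shown. The CHR letters were in the promoters of 10 of 14 G2/M genes (71.4%), 2 of 17 genes of the G1/S transition and replication (11.8%) and 20.2% of all genes. The letters CCAAT were in 13 of the 14 G2/M promoters (92.9%), in 12 of the 17 of the G1/S transition and replication (70.6%) and in 41.1% of all genes. In the promoters of the set, 1 overlap between different motifs was found. These matches describe letters in a fixed window and do not show that a factor binds there.

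**Figure D1:**
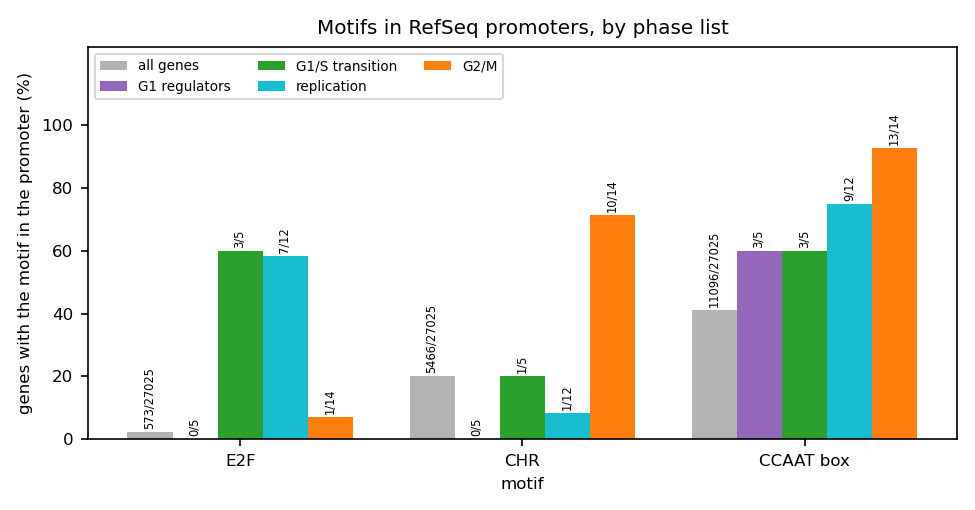
Share of genes, in percent, whose RefSeq promoter of 300 bases holds the E2F, CHR or CCAAT letters, for all genes in the table (grey) and for the 4 phase lists, with the number of genes over the number searched above each bar. E2F letters were most frequent in the G1/S transition (3 of 5) and replication lists (7 of 12), and CHR letters in the G2/M list (10 of 14).

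The cycle genes were expressed well above most genes of the line. Their median level was 62.3 FPKM against 17.3 FPKM for all genes tested, 38 of the 45 were above that overall median, and 10 had a mean over 100 FPKM. Pcna, the sliding clamp of DNA polymerases, was highest at 216 FPKM on average, followed by the helicase subunit Mcm6 (197), the mitotic kinase Cdk1 (191) and the G1 kinase Cdk4 (175). Myc was lowest at 1.97 FPKM, which corresponds to about 62.5 fragments per library, and Cdc25c, a phosphatase that activates Cdk1, was next at 4.44 FPKM. The genes also varied little within a group, with a median SD of 0.074 on the log2(FPKM + 1) scale against 0.118 for all genes tested. These medians were not matched for level of expression.

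None of the 45 genes passed the test in any comparison. The test was limma on log2(FPKM + 1) with adjustment over all 11161 genes at an adjusted p of 0.05. At 100 µg/ml against control it called 236 genes (2.11%) of the whole table, 79 higher and 157 lower. At 10 µg/ml against control it called no gene (0%), and 366 genes (3.28%) had an unadjusted p under 0.05. At 100 against 10 µg/ml it called 95 genes (0.851%). The smallest adjusted p of the set was 0.0848 for Ccnb2 at 100 µg/ml against control and 0.0690 for Myc at 100 against 10 µg/ml (limma).

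Counts that need no adjusted threshold were set against the same counts over all genes. An unadjusted p under 0.05 was found for 6 of the 45 genes at 100 µg/ml against control, where 19.4% of all genes had one, for 1 at 10 µg/ml against control (3.28% of all genes) and for 5 at 100 against 10 µg/ml (14.3% of all genes). Libraries did not overlap between 100 µg/ml and control for 13 genes (28.9%, all genes 23.8%), between 10 µg/ml and control for 4 (8.89%, all genes 10.7%) and between the doses for 9 (20%, all genes 19.4%). The median log2 fold change of the set at 100 µg/ml was 0.0011, with 24 genes above 0 and 21 below. The median size of the change, without its sign, was 0.063 against 0.110 for all genes, again not matched for level of expression.

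**Figure D2:**
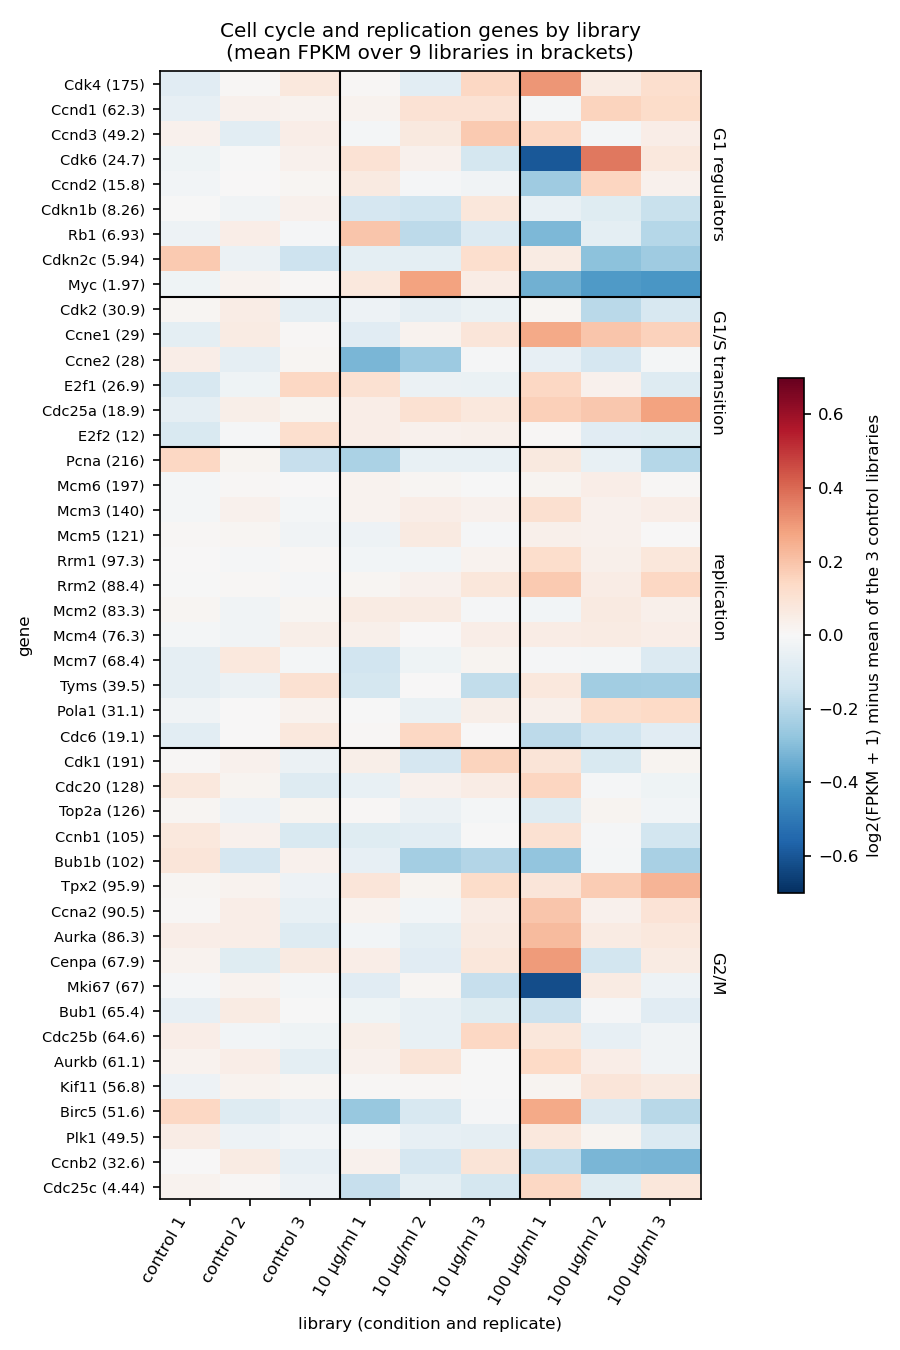
Each row is a gene, grouped by phase list and ordered by its mean FPKM (in brackets), and each column a library; colour gives log2(FPKM + 1) minus the mean of the 3 control libraries. Most cells are pale. The darkest blue cells are Mki67 and Cdk6 in replicate 1 at 100 µg/ml, and Myc and Ccnb2 are blue in all 3 libraries at that dose.

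The 9 regulators of G1 held the largest single difference of the set, in Myc (chr15:61985341-61990374), which encodes a transcription factor that drives growth and entry into the cycle. Myc was read at 2.03, 2.15 and 2.11 FPKM in the control libraries, at 2.26, 2.77 and 2.21 FPKM at 10 µg/ml and at 1.46, 1.36 and 1.34 FPKM at 100 µg/ml. All libraries at 10 µg/ml were above all controls, and all libraries at 100 µg/ml were below them. The log2 fold change at 100 µg/ml against control was -0.38 (SE 0.10, 95% interval -0.61 to -0.15, adjusted p = 0.0963, limma) on the log2(FPKM + 1) scale. On the FPKM scale itself the mean was lower by 34.1%, a log2 ratio of -0.60, since the added 1 shrinks the change of so low a gene. Between the doses it was -0.51 (SE 0.10, interval -0.75 to -0.28, adjusted p = 0.0690), and at 10 µg/ml against control it was 0.13 (SE 0.10, interval -0.10 to 0.37, adjusted p = 1). With a variance prior that did not follow the level of expression, Myc passed at 100 µg/ml against control (adjusted p = 0.0391) and between the doses (adjusted p = 0.0207, both limma). With that prior 235 and 73 of all genes were called in these comparisons.

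The other G1 regulators differed less. Rb1 (chr14:73183673-73325822), the retinoblastoma protein that holds E2F factors in check, was read at 7.09, 7.57 and 7.26 FPKM in controls and at 5.67, 6.92 and 6.23 FPKM at 100 µg/ml. These groups did not overlap, but the log2 fold change of -0.19 (SE 0.11) had an interval from -0.44 to 0.05. The Cdk inhibitor Cdkn1b also lay below all controls at 100 µg/ml (7.59 to 8.24 against 8.42 to 8.78 FPKM), with a log2 fold change of -0.10. Cdk4 (chr10:127063534-127067920), the kinase partner of D cyclins, was read at 158, 168 and 176 FPKM in controls and at 208, 174 and 182 FPKM at 100 µg/ml, and these ranges overlapped. Its log2 fold change was 0.16 (SE 0.08, interval -0.03 to 0.35, adjusted p = 0.330, limma). Ccnd1, Ccnd2 and Ccnd3, the 3 D cyclins, had log2 fold changes of 0.09, -0.02 and 0.06 at 100 µg/ml, and Ccnd1 stayed the most abundant of them in every library (57.5 to 66.7 FPKM). Cdkn2c, an inhibitor of Cdk4 and Cdk6, was read at 5.5 to 7.15 FPKM in controls and at 4.88 to 6.47 FPKM at 100 µg/ml.

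Among the 6 genes of the G1/S transition, a phosphatase and a cyclin were higher in all libraries at 100 µg/ml. Cdc25a (chr9:109875579-109893888) removes inhibitory phosphates from Cdk2 and was read at 16.8, 18.1 and 17.9 FPKM in controls, at 18.2, 19 and 18.5 FPKM at 10 µg/ml and at 19.8, 20.2 and 21.6 FPKM at 100 µg/ml. The 3 groups did not overlap and were ordered by dose. Its log2 fold change was 0.21 at 100 µg/ml against control (SE 0.06, interval 0.09 to 0.34, adjusted p = 0.0885), 0.07 at 10 µg/ml against control (SE 0.06, adjusted p = 1) and 0.14 between the doses (SE 0.06, adjusted p = 0.306, limma). Ccne1 (chr7:38097984-38107534), cyclin E1, was read at 26.2, 28.6 and 27.7 FPKM in controls, at 26.0, 28 and 29.2 FPKM at 10 µg/ml and at 33.2, 31.6 and 30.8 FPKM at 100 µg/ml. The libraries at 100 µg/ml were above all others, with a log2 fold change against control of 0.21 (SE 0.06, interval 0.07 to 0.35, adjusted p = 0.118, limma).

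The other genes of this transition had libraries at 100 µg/ml that overlapped those of controls. Ccne2, cyclin E2, was read at 30.8, 28.4 and 30.0 FPKM in controls, at 23.6, 24.7 and 29.5 FPKM at 10 µg/ml and at 28.5, 27.3 and 29.4 FPKM at 100 µg/ml. It was the gene of the set with an unadjusted p under 0.05 at 10 µg/ml against control, with a log2 fold change of -0.19 (SE 0.08, interval -0.38 to -0.01, adjusted p = 1, limma), and its groups overlapped. The level of Ccne1 relative to Ccne2 was 0.852, 1.01 and 0.924 in controls, 1.10, 1.13 and 0.989 at 10 µg/ml and 1.17, 1.16 and 1.05 at 100 µg/ml. Every library at 100 µg/ml was above every control in this ratio, which was chosen after the values were seen and was not tested. Cdk2 (chr10:128697939-128705051), the kinase that both E cyclins activate, was read at 32.2, 33.1 and 30.5 FPKM in controls and at 32.2, 27.9 and 29.5 FPKM at 100 µg/ml, and its log2 fold change was -0.10 (SE 0.06, interval -0.23 to 0.04). E2f1 and E2f2, activating E2F factors, had log2 fold changes of 0.03 and -0.05 at that dose, with overlapping libraries.

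The 12 genes of DNA replication had the lowest median SE of the log2 fold change, 0.047 against 0.065 to 0.093 in the other 3 lists. Pcna and Tyms, with an SE of 0.10 each, were exceptions. The lists were not matched for level of expression. The 6 subunits of the MCM helicase, Mcm2 to Mcm7, had log2 fold changes from -0.04 to 0.06 at 100 µg/ml, and their intervals lay within -0.17 and 0.16. At 10 µg/ml their changes ran from -0.05 to 0.04. Mcm2 was read at 82.9, 80.5 and 82.7 FPKM in controls, at 85.4, 85.6 and 81.7 FPKM at 10 µg/ml and at 81.1, 85.7 and 84.1 FPKM at 100 µg/ml. Mcm4 was the MCM gene whose libraries did not overlap, with 73.6 to 76.9 FPKM in controls, 77.3 to 78.0 FPKM at 100 µg/ml and a log2 fold change of 0.05 (SE 0.04). Pcna (chr2:132249162-132253314) was read at 248, 227 and 200 FPKM in controls, at 192, 216 and 216 FPKM at 10 µg/ml and at 235, 216 and 195 FPKM at 100 µg/ml. Its groups overlapped, and the log2 fold change at the higher dose was -0.06 (SE 0.10, interval -0.28 to 0.16).

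Of the genes that supply nucleotides or start synthesis, Rrm2, Rrm1 and Pola1 lay above all controls at 100 µg/ml, and the helicase loader Cdc6 lay below them. Rrm2 (chr12:24708241-24714146), the small subunit of ribonucleotide reductase, was read at 84.7, 85.5 and 84.6 FPKM in controls, at 85.8, 86.9 and 89.7 FPKM at 10 µg/ml and at 96.5, 88.0 and 94.1 FPKM at 100 µg/ml. Both doses lay above all controls, and the log2 fold change at 100 µg/ml was 0.13 (SE 0.05, interval 0.02 to 0.24, adjusted p = 0.205, limma). Rrm1, its large subunit, was also above all controls at 100 µg/ml (98.2 to 104 against 95.2 to 96.0 FPKM), with a log2 fold change of 0.08 (SE 0.04). Pola1 (chrX:93304767-93632155), the catalytic subunit of DNA polymerase alpha, was read at 29.9, 30.4 and 30.9 FPKM in controls and at 31.2, 33.2 and 33.6 FPKM at 100 µg/ml. These groups did not overlap, and the log2 fold change was 0.10 (SE 0.05, interval -0.02 to 0.21, adjusted p = 0.326, limma). Cdc6 (chr11:98907801-98923940) loads the MCM helicase and was read at 18.4, 19.4 and 20.4 FPKM in controls, at 19.5, 21.5 and 19.4 FPKM at 10 µg/ml and at 17, 17.5 and 18.3 FPKM at 100 µg/ml. The libraries at 100 µg/ml were below all others, with a log2 fold change of -0.13 against control (SE 0.06, interval -0.28 to 0.01, adjusted p = 0.301) and -0.18 between the doses (SE 0.06, interval -0.33 to -0.04, adjusted p = 0.240, limma). Tyms, thymidylate synthase, was read at 39.7 to 44.8 FPKM in controls and at 34.9 to 43.8 FPKM at 100 µg/ml, with a log2 fold change of -0.14 (SE 0.10).

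The 18 genes of G2 and mitosis split at 100 µg/ml into 10 with a log2 fold change above 0 and 8 below. Ccnb2 (chr9:70407689-70421554), cyclin B2, was read at 34.6, 36.1 and 33.2 FPKM in controls, at 35.4, 31.8 and 36.8 FPKM at 10 µg/ml and at 30.4, 27.5 and 27.4 FPKM at 100 µg/ml. All libraries at 100 µg/ml were below all others. Its log2 fold change was -0.28 against control (SE 0.07, interval -0.44 to -0.12, adjusted p = 0.0848) and -0.28 against 10 µg/ml (SE 0.07, adjusted p = 0.128, limma), and its mean FPKM was lower by 17.8% than in controls. The libraries of Ccnb1, cyclin B1, overlapped between the groups. Ccnb1 was read at 113, 109 and 99.2 FPKM in controls and at 115, 106 and 97.7 FPKM at 100 µg/ml, with a log2 fold change of -0.01 (SE 0.07, interval -0.17 to 0.15). The level of Ccnb2 relative to Ccnb1 was 0.307, 0.331 and 0.334 in controls, 0.352, 0.314 and 0.346 at 10 µg/ml and 0.265, 0.258 and 0.281 at 100 µg/ml. The 100 µg/ml libraries were below all others in this ratio, which was chosen after the values were seen and was not tested.

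Tpx2 (chr2:152847964-152895321), a spindle assembly factor that activates aurora kinase A, was read at 91.2, 91.9 and 88.3 FPKM in controls, at 96.0, 91.8 and 99.0 FPKM at 10 µg/ml and at 95.8, 102 and 107 FPKM at 100 µg/ml. Its libraries at 100 µg/ml were above all controls, with a log2 fold change of 0.17 (SE 0.05, interval 0.04 to 0.29, adjusted p = 0.151, limma). Aurka, the kinase it activates, was also above all controls at 100 µg/ml (87.4 to 98.1 against 78.7 to 86.8 FPKM), with a log2 fold change of 0.12 (SE 0.07). Bub1b (chr2:118598211-118641591), a protein of the spindle checkpoint, was read at 117, 101 and 112 FPKM in controls, at 105, 93.2 and 95.1 FPKM at 10 µg/ml and at 90.6, 109 and 93.7 FPKM at 100 µg/ml. Its groups overlapped, and its log2 fold change was -0.17 at both doses (SE 0.09, adjusted p = 0.320 at 100 µg/ml and 1 at 10 µg/ml, limma). Cdk1 (chr10:69336635-69352938), the kinase that starts mitosis, was read at 190, 194 and 184 FPKM in controls and at 201, 176 and 192 FPKM at 100 µg/ml, with a log2 fold change of 0.0011 and an interval from -0.17 to 0.18. Polo-like kinase Plk1, the phosphatase Cdc25b, the anaphase activator Cdc20, topoisomerase Top2a, survivin (Birc5) and the spindle motor Kif11 had log2 fold changes between -0.03 and 0.06 at 100 µg/ml. Cyclin A2 (Ccna2), the centromere histone Cenpa, the kinases Aurkb and Bub1 that watch over chromosome attachment, and Cdc25c were between -0.08 and 0.11, with libraries that overlapped those of controls.

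**Figure D3:**
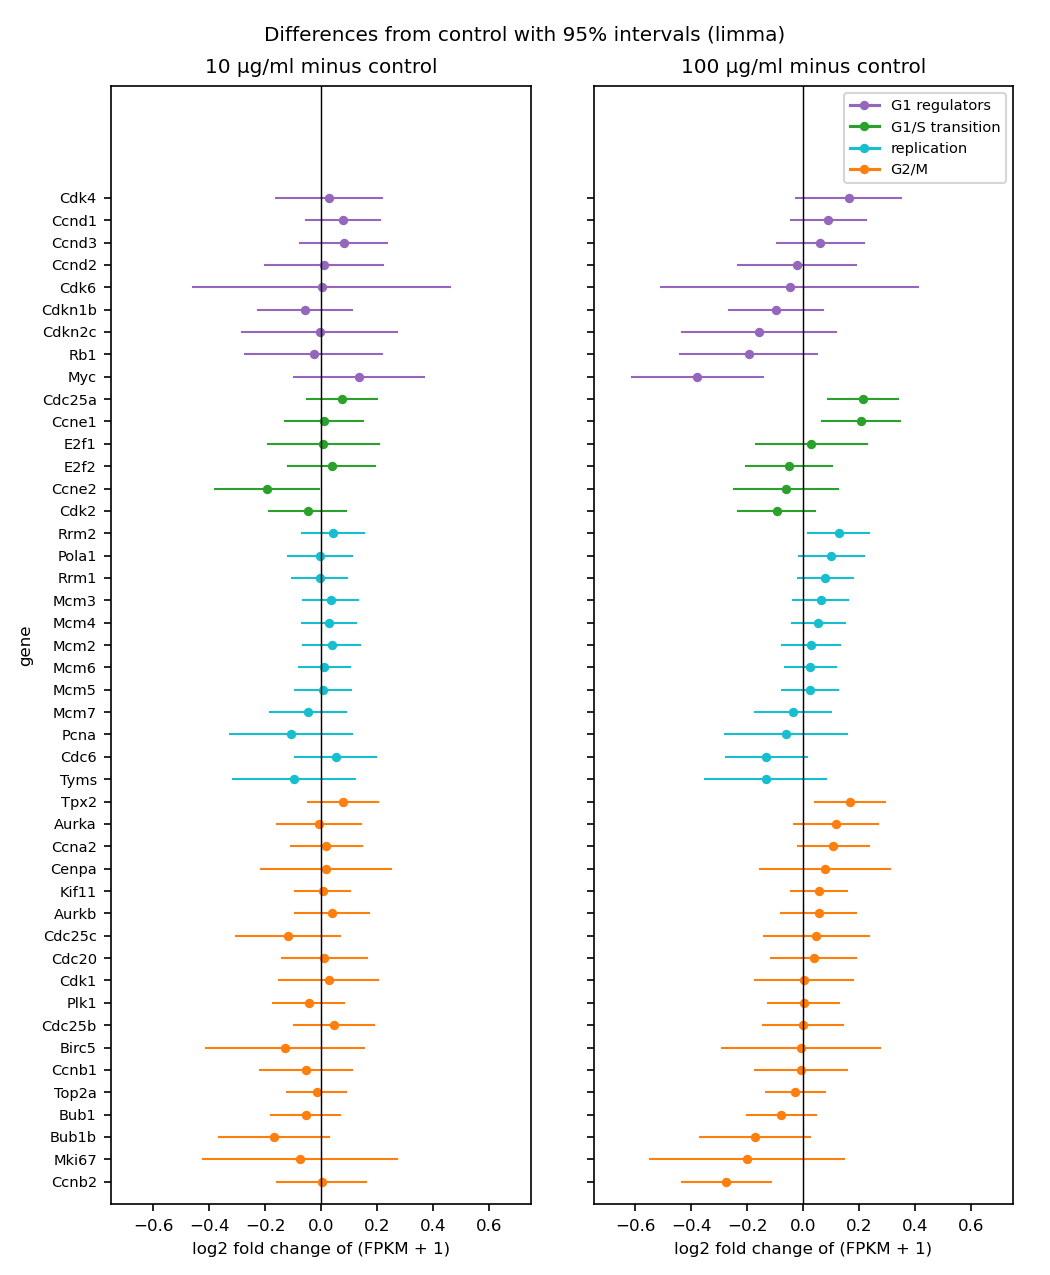
Log2 fold change of (FPKM + 1) against control at 10 µg/ml (left) and 100 µg/ml (right) for the 45 genes, coloured by phase list; points are limma estimates and bars 95% intervals. At 100 µg/ml the intervals of Myc and Ccnb2 lie below 0 and those of Cdc25a, Ccne1, Rrm2 and Tpx2 above 0; none passed after adjustment over all genes.

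Replicate 1 at 100 µg/ml decided the values of the genes with the longest transcripts. Mki67, the gene of the proliferation marker Ki-67, whose longest transcript has 10061 bases, was read at 70.5, 72.0 and 70.2 FPKM in controls, at 67.1, 71.5 and 63.3 FPKM at 10 µg/ml and at 45.7, 73.7 and 69.3 FPKM at 100 µg/ml. At the higher dose it had a log2 fold change of -0.20 with replicate 1 (SE 0.15, adjusted p = 0.520) and 0.01 without it (adjusted p = 0.931, limma). Cdk6, with a longest transcript of 11525 bases, was read at 24.1, 24.6 and 25.2 FPKM in controls and at 16.0, 32.2 and 26.0 FPKM at 100 µg/ml. Its log2 fold change against control was -0.05 with replicate 1 (adjusted p = 0.918) and 0.22 without it (SE 0.10, interval -0.0035 to 0.45, adjusted p = 0.212, limma).

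Leaving out this library moved the log2 fold change against control of 11 of the 45 genes by over 1.5 times or past 0, counting those with a size over 0.1 in either fit. Mki67 and Cdk6 turned sign. Tyms went from -0.14 to -0.24 (adjusted p = 0.0922), Cdkn2c from -0.16 to -0.27, Cdk2 from -0.10 to -0.15, Pcna from -0.06 to -0.13 and Birc5 from -0.0083 to -0.15. Cdk4 went from 0.16 to 0.087, Aurka from 0.12 to 0.065 and Ccna2 from 0.11 to 0.064, and Ccnd1 from 0.09 to 0.14. None of these 11 passed without it (limma). In replicates 2 and 3 the relation to length ran the other way, with rho of 0.42 and 0.61 over the 45 genes, since each is set against the other 2. The control libraries had rho from -0.34 to 0.52 over these genes. These are descriptions across genes of the same libraries.

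**Figure D4:**
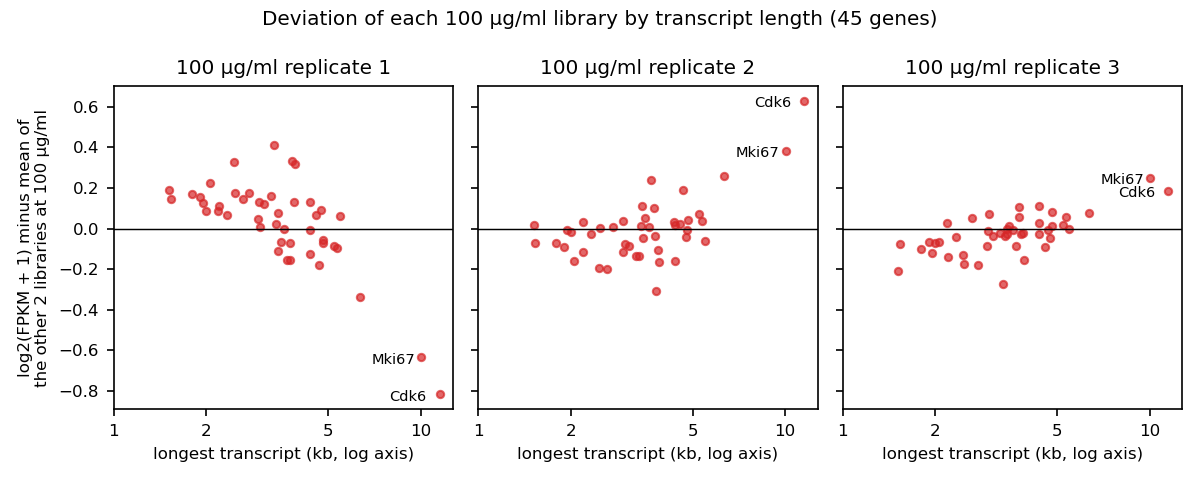
Deviation of each library at 100 µg/ml from the mean of the other 2, in log2(FPKM + 1), against the longest transcript of each of the 45 genes in kilobases on a log axis. In replicate 1 the deviation falls with length (rho -0.62), down to Mki67 and Cdk6 at the lower right; in replicates 2 and 3 it rises with length.

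Removing the relation to length and GC content from each library changed which genes passed. After that correction 5 of the 45 genes were called at 100 µg/ml against control, and 806 of all 11076 genes corrected. Ccnb2 was lower by a log2 fold change of -0.25 (adjusted p = 0.0234), and Cdc25a (0.23, adjusted p = 0.0316), Tpx2 (0.19, adjusted p = 0.0408), Rrm2 (0.15, adjusted p = 0.0470) and Ccne1 (0.21, adjusted p = 0.0485) were higher (limma). Between the doses 2 of the 45, Ccnb2 and Myc, were called, and 322 of the 11076. Leaving out replicate 1 at 100 µg/ml gave 2 genes, Ccnb2 (-0.32, adjusted p = 0.0411) and Tpx2 (0.21, adjusted p = 0.0465, limma), among 539 genes in all.

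The balance between the phases was compared as the mean log2(FPKM + 1) of the 27 matched G1, G1/S and replication genes minus that of the 18 G2/M genes. It was -0.88, -0.83 and -0.79 in controls, -0.82, -0.78 and -0.82 at 10 µg/ml and -0.87, -0.82 and -0.83 at 100 µg/ml. All groups overlapped. Relative to control, the balance at 100 µg/ml differed by -0.0021 and that at 10 µg/ml by 0.026, both smaller than the pooled SD between libraries of 0.033. The mean of the G2/M genes was 6.09 ± 0.031 in controls, 6.07 ± 0.029 at 10 µg/ml and 6.09 ± 0.032 at 100 µg/ml (SD, n = 3). The replication genes averaged 6.33 ± 0.0074, 6.33 ± 0.025 and 6.34 ± 0.027 in the same order.

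The 9 G1 regulators were the list whose libraries did not overlap. Their mean was 4.27, 4.27 and 4.28 in controls, 4.30, 4.28 and 4.32 at 10 µg/ml and 4.16, 4.26 and 4.21 at 100 µg/ml. The difference at 100 µg/ml was -0.066 against control and -0.092 against 10 µg/ml, with a pooled SD of 0.033, and 6 of the 9 genes had a log2 fold change below 0. Without replicate 1 at 100 µg/ml, the lowest library, the differences were -0.041 and -0.067, and the other 2 libraries still lay below all controls. Myc, a gene at 1.34 to 2.77 FPKM, had the largest log2 fold change of the 9 genes in size (-0.38), and the non-overlap rests on it. With Myc left out of the mean, 100 µg/ml replicate 2 lies above all controls and the groups overlap. The list pools drivers of G1 with the inhibitors Rb1 (-0.19), Cdkn1b (-0.10) and Cdkn2c (-0.16), so a lower mean gives no direction for G1.

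Other genes of the same processes were read from 5 further lists with 153 genes, of which 143 were tested. At 100 µg/ml 2 of the 143 were called, where 2.11% of all genes were. Anln, which encodes anillin, a scaffold of the cleavage furrow, was the 1 gene called of 59 other genes of mitosis. It was read at 31.5, 33.3 and 31.7 FPKM in controls, at 30.9, 31.0 and 30.6 FPKM at 10 µg/ml and at 24.0, 26.9 and 25.7 FPKM at 100 µg/ml. It fell at 100 µg/ml by a log2 fold change of -0.32 (SE 0.05, adjusted p = 0.0210, limma). Dbf4, the activator of the kinase Cdc7 that fires replication origins, was the 1 gene called of 48 tested in the list of other replication genes. It was read at 43.7, 44.3 and 48.6 FPKM in controls, at 51.2, 47.6 and 50.7 FPKM at 10 µg/ml and at 58.8, 55.6 and 57.1 FPKM at 100 µg/ml, and rose at 100 µg/ml by a log2 fold change of 0.32 (SE 0.06, adjusted p = 0.0280, limma). Both calls were lost in the fit of the 6 libraries compared, with an adjusted p of 0.101 for Anln and 0.0943 for Dbf4. Anln was also not called without control replicate 1, 2 or 3 (adjusted p = 0.0785, 0.109 and 0.0655) or without 100 µg/ml replicate 3 (0.0741). Dbf4 was not called without control replicate 1 or 2 (adjusted p = 0.111 and 0.123), 10 µg/ml replicate 1 or 3 (0.0515 and 0.0568) or 100 µg/ml replicate 2 or 3 (0.0534 and 0.0861, all limma).

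No gene was called at 100 µg/ml among 15 tested genes of the E2F, pocket protein and DREAM families, 14 of Cdk inhibitors and cell cycle exit and 7 of the Myc network. In these lists 2 of 15, 5 of 14 and 3 of 7 genes had an unadjusted p under 0.05, where 19.4% of all genes had one. In the Myc network the smallest adjusted p was that of Mxd4, a Myc antagonist, at 1.29, 1.19 and 1.19 FPKM in controls and 0.564, 0.682 and 0.635 FPKM at 100 µg/ml (log2 fold change -0.45, SE 0.11, adjusted p = 0.0786, limma). At 100 µg/ml Mxd4 lay under the minimum of 1 FPKM and passed the filter only through its level in the other groups. Its adjusted p is therefore no support for a change. No gene of the 5 lists was called at 10 µg/ml against control or between the doses.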

How the data were processed

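RNA of 9 libraries was selected on oligo(dT) beads and sequenced. Per the labels and the study's methods, the authors used TopHat for alignment and Cufflinks 2.1.1 for the FPKM values they deposited. FPKM keeps no counts, so no count test was run. Approximate depth was the value that brought low FPKM values closest to whole fragments. Of these same values 68.1 to 77.1% lay within 0.25 of a whole fragment (50% by chance without such a choice). This share is therefore no independent check of the depth.

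Samples were grouped by their labels. The 11161 genes whose mean reached 1 FPKM were tested on log2(FPKM + 1). A single limma fit held all 3 groups (limma 3.58.1, R 4.3.3), with the eBayes trend option and Benjamini-Hochberg adjustment over these genes. A pseudocount of 1 understates fold changes of low genes. Tables were made in Python (3.11.15; pandas 2.3.3, numpy 2.4.6). The procedure was tested on simulated data. Transcript length and GC content came from GENCODE M21, for 99.2% of the genes tested, and gene coordinates from the deposited table (GRCm38).

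Genes were described in full if called in a comparison, if among the 3 smallest p-values of their list at 100 µg/ml against control, or if highest in their list. Other genes were named after their values were seen. The genes and lists were chosen with earlier results of these data known. Alternatives were 2 pseudocounts, 2 filters, 2 scalings, a replicate block, no trend, 6 libraries, a length and GC correction, leaving out each library and, for the balance of phases, other gene choices. The correction with the block, the list means without 100 µg/ml replicate 1 and the mean of the G1 regulators without Myc were added after seeing the data. Gins2, of a further list, was not analysed here.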

Additional observations from a re-analysis of the deposited data

How the results depend on the processing

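Of the 45 genes, the number called at 100 µg/ml against control was 0 in the main fit. It became 1 with no trend (Myc), where 235 of all genes were called, and 5 with the GC and length correction (806 of all genes). With that correction and the replicate block it was 1 (Ccne1, adjusted p = 0.0464, limma), where 435 of all genes were called. Without a library it was 0 to 2, with 2 only without 100 µg/ml replicate 1 (539 of all genes). Between the doses it became 1 with a pseudocount of 0.01 (Myc, adjusted p = 0.0484, limma), where 99 of all genes were called. It was 1 with no trend (73 of all genes) and 2 with the GC and length correction (322 of all genes). At 10 µg/ml against control no alternative called any of the 45.

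The labels do not state whether replicate numbers pair the samples. The correlation of deviations was -0.088 to 0.152 between same-numbered libraries and -0.166 to 0.143 between the others, which cannot settle it. With the replicate block all-gene calls were 106 at 100 µg/ml against control (236 without) and 13 between the doses (95 without), and of the genes of the further lists Anln (adjusted p = 0.0530) and Dbf4 (adjusted p = 0.0610, limma) were not called at 100 µg/ml against control. Over all genes, 100 µg/ml against control gave 22 with only the 6 libraries compared, 806 with the GC and length correction and 435 with that correction and the block. Without a library it gave 31 to 539: 45, 31 and 96 without control replicates 1, 2 and 3, 150 and 139 without 10 µg/ml replicates 1 and 3, and 539, 154 and 78 without 100 µg/ml replicates 1, 2 and 3. At 10 µg/ml against control, 4 genes were called with no filter, 1 with 6 libraries and 0 to 2 without a library. Between the doses, 6 were called with 6 libraries, 322 with the GC and length correction and 8 to 191 without a library. The causes were not tested.

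The balance of phases between the doses moved from -0.028 to 0.012 with only the G1/S transition and replication genes. With these genes it went from -0.0021 to 0.027 at 100 µg/ml against control and from 0.026 to 0.014 at 10 µg/ml against control. Without a library, the balance with the G1 regulators included was -0.025 to 0.020 at 100 µg/ml against control, 0.0031 to 0.049 at 10 µg/ml and -0.037 to -0.014 between the doses.

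Signs were followed only for the genes described in full and for Mki67, Mcm2, Ccne2, Cdk6, Tyms, Anln and Dbf4. Among these, changes of sign occurred in fold changes that were not called in any setting. Other genes of the set also turned sign, such as Birc5 between the doses (0.12, and -0.016 without 100 µg/ml replicate 1). Ccnd2 at 100 µg/ml against control was -0.024, and 0.024 with the GC and length correction. With median-of-ratios rescaling Cdk1 was -0.0048 at 100 µg/ml, and Ccnb2 was -0.0018 and Cdk6 -0.00053 at 10 µg/ml. With quantile normalization Cdk6 was -0.0032 at 10 µg/ml. With the GC and length correction, with or without the block, Pola1 was 0.0091 at 10 µg/ml, Cdk6 was 0.038 at 100 µg/ml, and between the doses Bub1b was 0.019, Mcm2 0.016 and Cdk6 0.031. Without a library, the range at 100 µg/ml against control was -0.043 to 0.054 for Cdk1, -0.26 to 0.22 for Cdk6, -0.33 to 0.011 for Mki67 and -0.14 to 0.011 for Pcna. At 10 µg/ml against control it was -0.043 to 0.059 for Ccnb2, -0.027 to 0.055 for Ccne1, -0.039 to 0.098 for Cdk1, -0.049 to 0.066 for Cdk6, -0.032 to 0.078 for Cdk4, -0.027 to 0.019 for Pola1 and -0.14 to 0.050 for Rb1. Between the doses it was -0.085 to 0.049 for Bub1b, -0.097 to 0.040 for Cdk1, -0.26 to 0.22 for Cdk6, -0.032 to 0.011 for Mcm2, -0.25 to 0.087 for Mki67, -0.016 to 0.12 for Pcna and -0.14 to 0.016 for Tyms.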

Other observations

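Among genes of the further lists, 2 with high levels varied strongly between libraries of the same condition. E2f3, an activating E2F factor, was read at 45.9, 15.5 and 30.5 FPKM in controls, at 16.3, 16.9 and 16.8 FPKM at 10 µg/ml and at 44.1, 17.5 and 17.7 FPKM at 100 µg/ml. Pold2, a subunit of DNA polymerase delta, was read at 117, 128 and 77.3 FPKM in controls, at 68.4, 124 and 102 FPKM at 10 µg/ml and at 71.7, 98.4 and 88.5 FPKM at 100 µg/ml. The SE of their log2 fold changes was 0.42 and 0.25. Both genes were chosen after their values were seen.

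The further lists also carried the promoter letters of their phase. E2F letters were in 13 of 40 promoters of the other replication genes (32.5%) and in 4 of 49 of the other genes of mitosis (8.16%), against 2.12% of all genes. CHR letters were in 33 of the 49 promoters of the other genes of mitosis (67.3%) and in 8 of 40 of the other replication genes (20%), against 20.2% of all genes.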
